A study of Mus musculus with 78 samples.

Results

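Intracisternal A-particle (IAP) elements are mouse endogenous retroviruses, and 5826 annotated IAP copies carried reads in the single blastomeres examined here, of 461206 repeat copies of all kinds. A copy is 1 piece of the genome that RepeatMasker assigned to a repeat subfamily, so that a single provirus can be cut into several copies. Members were chosen by name alone: every row of the 4-cell and the 8-cell repeat table whose name, before its copy number, starts with IAP. They fell into 25 subfamilies. Of the copies, 4214 in 10 subfamilies were internal parts, which hold the coding region, and 1612 in 15 subfamilies were long terminal repeats (LTRs). The 4-cell table listed 4252 IAP copies of 278683 repeat copies, and the 8-cell table listed 4974 of 327627.

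A complete IAP provirus is an internal part with gag and pol reading frames between a pair of LTRs, of which the 5' LTR acts as promoter and the 3' LTR ends the transcript. Solitary LTRs remain where recombination has removed the internal part. Most IAP copies lack a working env gene and therefore spread inside the cell, by reverse transcription of their own RNA. In somatic cells they are kept silent by DNA methylation and by KRAB zinc finger proteins, which bring the corepressor TRIM28 and the H3K9 methyltransferase SETDB1 to the element. IAP elements are among the repeats that keep much of their DNA methylation through the reprogramming of the early embryo, and IAP transcripts and particles are nonetheless known from preimplantation mouse embryos.

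The blastomeres came from embryos heterozygous for Brainbow (the multicolour reporter cassette Brainbow2.1, at the Rosa26 locus) and for a tamoxifen-inducible Cre (Tg(CAG-cre/Esr1*)5Amc/J), both driven by the ubiquitous CAG promoter. Every embryo of either stage was exposed to 4-hydroxytamoxifen at the 2-cell stage, for 2 h, and grown in culture to the 4-cell or the 8-cell stage, so no untreated embryo and no embryo that developed past the 2-cell stage in the mother entered the comparison. The repeat tables hold 24 columns of 4-cell and 26 columns of 8-cell blastomeres, from several embryos each. No column name matches the label of a single sample, and columns were not assigned to embryos by their order or depth. Each stage was therefore treated as 1 sample: the blastomeres show the spread within it, the spread between embryos was not separated from it, no test between stages was made, and a fixed size rule stands in for one throughout.

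The values are FPKM, fragments per kilobase of the copy and per 1000000 fragments of the denominator. Whole fragments and copy lengths were recovered from them as described with the processing. Depth is given as the denominator of the FPKM values, which is not the number of reads sequenced. It was 6.88 to 16.9 M fragments (M, 1000000) at the 4-cell stage (median 13.4) and 2.34 to 21.8 M at the 8-cell stage (median 17.3), where the second shallowest held 12.6 M. Only reads with a single place in the genome were counted by the authors. Young IAP copies, which differ from each other at few bases, can lose many reads to this filter, so their values are lower bounds, and how far each copy was undercounted was not tested. Markers of the cleavage-stage blastomere had a summed FPKM with a median of 5666 at the 4-cell stage and 5673 at the 8-cell stage, a sum carried by Dppa3 and Obox6. Of these 12 markers 9 had a median above 1 at the 4-cell stage and 7 at the later stage, with medians at 0 for 1 and 4 of them. The oocyte genes Gdf9 and Nlrp5 had medians of 4.39 and 5.06 at the 4-cell stage and of 0 and 0.122 at the 8-cell stage, and Khdc3 had 101 and 443. Of 8 markers of cumulus or granulosa cells 3 were listed, of which Has2 and Star had a median of 0 at both stages and only Amhr2 was above 1, with medians of 36.6 and 41.5. The summed trophectoderm markers had a median of 6.13 at the 4-cell stage and 110.0 at the 8-cell stage, carried by Krt8 and Krt18 (0 for both, then 43.3 and 29.8), while Cdx2 and Eomes had an 8-cell median of 0 and Gata3 of 0.238. The summed inner cell mass markers had medians of 48.9 and 43.2. Their part in the results was not tested.

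Internal IAP copies were detected in larger number at the 8-cell stage. A 4-cell blastomere had between 255 and 1653 internal copies above 0, with a median of 1082. An 8-cell blastomere had between 388 and 2569, with a median of 2023, which is 1.87 times the 4-cell median. The ranges overlapped, but 19 of 26 8-cell blastomeres lay above the highest 4-cell blastomere, and the 8-cell blastomere with the fewest copies was also the shallowest library. Repeat copies of all kinds did not share this difference, with medians of 36838 at the 4-cell stage and 36262 at the 8-cell stage.

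Set against all repeat copies above 0 in the same blastomere, internal IAP copies made up 0.899% to 7.33% at the 4-cell stage (median 2.58%) and 3.46% to 7.64% at the 8-cell stage (median 5.28%). Every 8-cell blastomere lay above the 4-cell median. The highest 4-cell share, 7.33%, belonged to the blastomere with the fewest repeat copies of its stage, 22238, and it had 1631 internal IAP copies. The 8-cell libraries were deeper, and within a stage the number of internal copies had a Pearson correlation with depth of 0.459 over 24 and 0.677 over 26 blastomeres. Without the shallowest library of each stage it was 0.474 and 0.304, so the 8-cell value rested largely on 1 library. When every library was thinned to 6.88 M fragments and the shallowest was left out, the medians became 749 and 1409 copies, a ratio of 1.88.

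**Figure D1:**
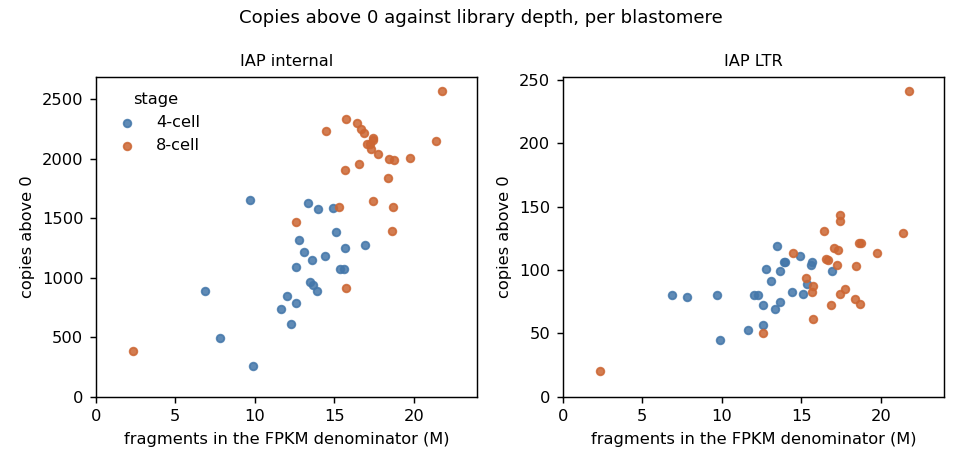
The number of internal IAP copies (left) and IAP LTR copies (right) above 0 in each blastomere is plotted against the fragments in its FPKM denominator (M), with 24 4-cell blastomeres in blue and 26 8-cell blastomeres in orange. Most 8-cell points lie above the 4-cell points of like depth for internal copies, and the 2 stages intermingle for LTRs. The isolated 8-cell point at 2.34 M fragments has 388 internal copies.

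Fragments differed in the same direction as copies. Scaled to a denominator of 1000000 fragments (FPM), internal IAP copies took 165 to 1365 FPM at the 4-cell stage (median 460) and 386 to 1787 at the 8-cell stage (median 1135). The medians stood in a ratio of 2.47, and 7 of 26 8-cell blastomeres lay above the highest 4-cell one. As a share of all repeat fragments of the same blastomere, the medians were 0.4997% and 1.10%. Most internal copies were seen by very few fragments: at the 4-cell stage a median of 55.97% of the copies above 0 in a blastomere rested on 1 fragment, against 30.01% at the 8-cell stage. Counting only copies with 2 or more fragments, the medians were 481 and 1416 copies.

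LTR copies differed less between the stages. A 4-cell blastomere had 45 to 119 LTR copies above 0 (median 82), and an 8-cell blastomere had 20 to 241 (median 106). At equal depth the medians were 65.4 and 68.7, and counting only copies above an FPKM of 1 they were 32 and 31. As a share of the repeat copies above 0, LTR copies had medians of 0.219% and 0.287%, a ratio of 1.31, with 22 of 26 8-cell blastomeres above the 4-cell median. At equal depth this ratio was 1.23, with 22 of 25 above. LTR copies took 90.6 to 228 FPM at the 4-cell stage (median 131) and 109 to 219 at the 8-cell stage (median 141), ranges that overlapped almost entirely. The blastomere with 241 LTR copies was the deepest library. Fragments on LTR copies did not follow those on internal copies from blastomere to blastomere, with a Pearson correlation of -0.10 at the 4-cell stage over 24 blastomeres and -0.088 at the 8-cell stage over 26, given as a description of points that share their library's denominator.

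**Figure D2:**
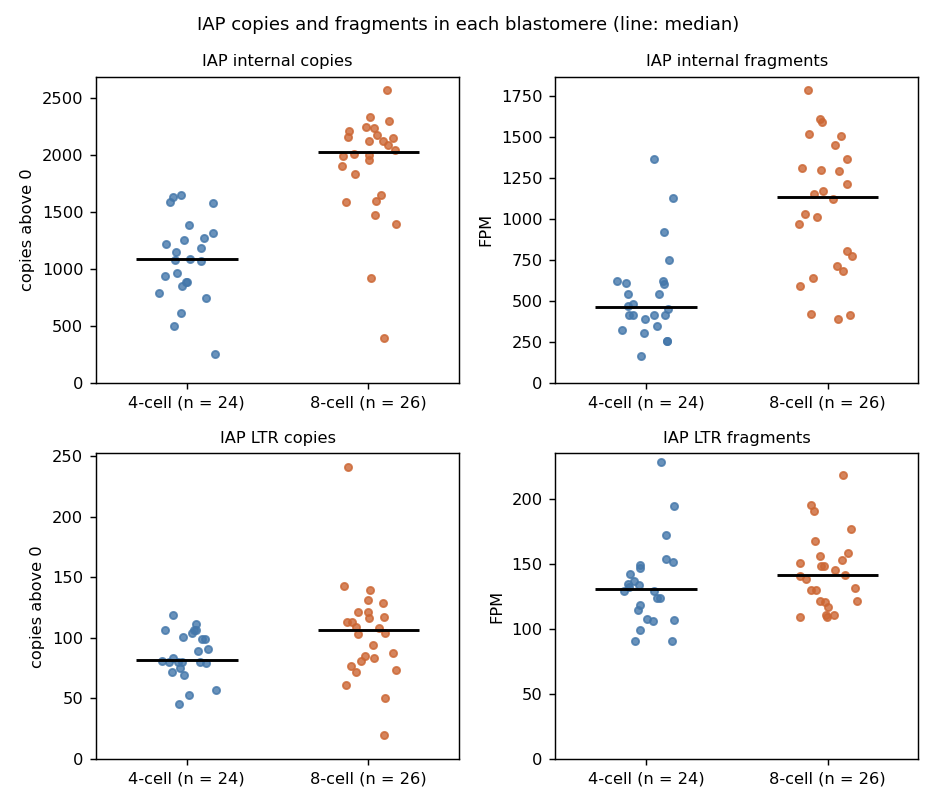
Each point is 1 blastomere (24 at the 4-cell stage and 26 at the 8-cell stage) and each line the median of its stage. The upper panels show internal IAP copies above 0 and their FPM, with medians of 1082 and 2023 copies and of 460 and 1135 FPM. The lower panels show the same for IAP LTRs, with medians of 82 and 106 copies and of 131 and 141 FPM.

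Summed FPKM, which weights each fragment by the inverse length of its copy, showed less difference than fragments did. Internal IAP copies held a median of 0.0463% of the summed FPKM of all repeat copies at the 4-cell stage and 0.0567% at the 8-cell stage, a ratio of 1.22. This measure was set largely by 2 short pieces of IAP1-MM_I-int on chromosome 13, described further on. These held a median of 63.9% of the internal summed FPKM at the 4-cell stage and 30.1% at the 8-cell stage. It was 1.03 when the blastomeres of a stage were pooled. Without the 2 pieces the ratio was 2.08, and with recovered fragments in place of FPKM it was 2.20. For LTRs the ratio was 0.971, and it passed above 1 with recovered fragments (1.10).

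Copy by copy, many internal copies were detected in more blastomeres at the 8-cell stage. A copy was called higher or lower when the percent of blastomeres in which it was above 0 differed between stages by at least 25 points, among copies listed in both tables. Of 2921 internal copies, 1466 (50.2%) were higher at the 8-cell stage, against 3.0% of all 145104 repeat copies tested the same way. Only 8 internal copies (0.274%) were lower, against 7.95% of all repeat copies. The median difference over the internal copies was 25 points in favour of the 8-cell stage, beside -0.32 points over all repeat copies. Internal IAP copies were 2.01% of the copies tested and 33.7% of those called higher. At equal depth 1206 internal copies (41.3%) were called higher, against 2.33% of all repeat copies. At least 50 points separated the stages for 171 internal copies, and counting only values above an FPKM of 1 left 29 higher by 25 points. The share of all repeat copies under these 2 rules is not given, so neither count is compared with the background. Differences of 55 to 65 points were held by 2.33% of the internal copies and 0.0786% of all repeat copies.

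Of 479 LTR copies 17 (3.55%) were higher at the 8-cell stage, a share near the 3.0% of all repeat copies, and 9 (1.88%) were lower, a share below the 7.95% of all repeat copies, with a median difference of -0.32 points. Other retrovirus-like repeats went different ways. Of 2216 copies of MERVL-int and its LTR MT2_Mm, the endogenous retrovirus that marks zygotic genome activation at the 2-cell stage, 2 were higher and 747 lower. Of 6705 RLTR, ETn and RMER copies 287 were higher (4.28%) and 163 lower (2.43%).

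**Figure D3:**
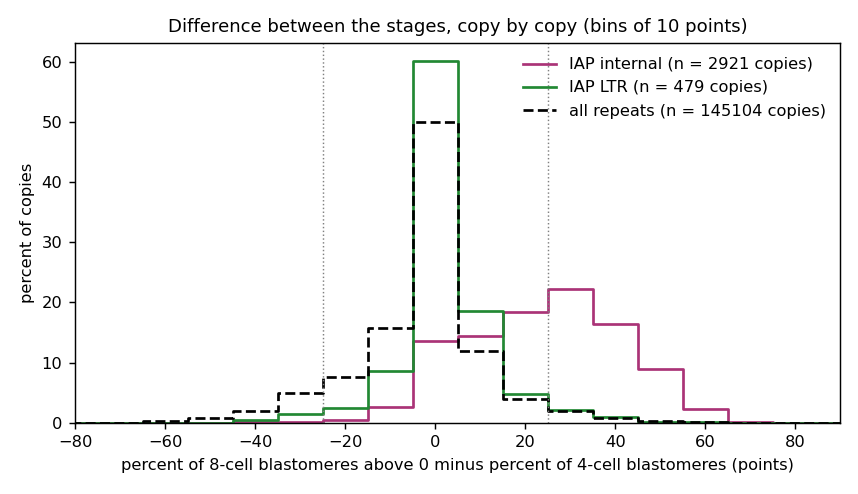
The percent of copies (vertical axis) is drawn against the difference between the percent of 8-cell and of 4-cell blastomeres in which a copy was above 0 (horizontal axis, points, in bins of 10), for 2921 internal IAP copies, 479 IAP LTR copies and all 145104 repeat copies listed in both tables. Dotted lines mark 25 points in either direction. LTR and all repeat copies peak at 0, whereas the internal copies spread to the right, with a median of 25 points.

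The level of internal copies was higher at the 8-cell stage as well. For copies above 0 in at least 50% of the blastomeres of both stages, the mean FPKM at the 8-cell stage was divided by that at the 4-cell stage. Of 924 internal copies 680 (73.6%) were at least 2-fold higher, against 13.7% of 11718 repeat copies, and 21 (2.27%) were at least 2-fold lower, against 29.5%. The median ratio was 2.77 for internal IAP copies and 0.839 for all repeat copies tested. Copies seen widely at 1 stage only are outside this count, since a ratio needs both, and the level of a copy with a few fragments is coarse. Only 15 LTR copies passed the entry rule, of which 1 was higher and 2 lower, with a median ratio of 0.892. Of 577 RLTR, ETn and RMER copies 140 (24.3%) were higher and 36 (6.24%) lower, with a median ratio of 1.34, so that these repeats also stood above the background, by less than the internal IAP copies, and their median FPM was 1.59 times that of the 4-cell stage. Of 695 MERVL-int and MT2_Mm copies 3 were higher and 586 lower. On a log2 scale with a pseudocount of 1, only 3 of the 924 internal copies (0.325%) differed by 2-fold in the 8-cell direction. Over all repeat copies this share was 7.45%, so on this scale the internal copies lay below the background. The internal count was low because nearly all of these copies had FPKM values far below 1.

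Blastomeres of the 8-cell stage also shared more of their internal copies. At the 4-cell stage 933 of 3301 listed internal copies (28.3%) were above 0 in at least 50% of the blastomeres, and at the 8-cell stage 1937 of 3834 (50.5%). Over all repeat copies these shares were 7.21% and 4.59%. These counts moved with the rule: with 2 or more fragments the internal counts were 219 and 1352, at equal depth 346 and 1349, and above an FPKM of 1 they were 6 and 18. Nearly all internal copies that were common at the 4-cell stage were common at the 8-cell stage too: 924 copies passed 50% in both, which is 99.0% of the 4-cell and 47.7% of the 8-cell set. Over all repeat copies the overlap was 58.3% of the 4-cell and 77.9% of the 8-cell set. The number of internal copies above 0 in every blastomere was 11 at the 4-cell stage (0.333%) and 93 at the 8-cell stage (2.43%), beside 0.499% and 0.379% of all repeat copies. Copies seen in exactly 1 blastomere numbered 496 (15.03%) and 470 (12.3%).

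Any pair of 4-cell blastomeres shared a median of 59.5% of the internal copies of the smaller set, and any pair of 8-cell blastomeres shared 82.6%. A 4-cell blastomere paired with an 8-cell blastomere shared 81.0%, so that the internal copies of a 4-cell blastomere were mostly found again at the 8-cell stage. For LTR copies the values were 26.3%, 29.4% and 25.3%, and for all repeat copies 42.7%, 37.5% and 35.9%. A large set holds more of any smaller one by its size alone, and pairs that use the same blastomere are not independent.

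Most LTR copies were seen in a single blastomere, as were most repeat copies at large. At the 4-cell stage 625 of 951 LTR copies (65.7%) were above 0 in exactly 1 blastomere, and at the 8-cell stage 711 of 1140 (62.4%). This compares with 54.8% and 59.8% of all repeat copies, and 60.9% and 62.2% of RLTR, ETn and RMER copies. In a blastomere a median of 40.4% and 47.5% of the LTR copies above 0 rested on 1 fragment. How far the limit of detection set these shares was not tested. Only 18 and 27 LTR copies were above 0 in at least 50% of the blastomeres. Of these 15 were common to both stages. The 479 LTR copies listed in both tables were 50.4% of the 4-cell and 42.0% of the 8-cell list, close to the 52.1% and 44.3% of all repeat copies, whereas the 2921 internal copies listed in both were 88.5% and 76.2%.

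Internal copies were less often listed at a single stage than repeat copies at large, of which 133579 of 278683 appeared only in the 4-cell and 182523 of 327627 only in the 8-cell table. Those seen in exactly 1 blastomere were 68.7% and 37.1% of the internal copies listed once, beside 77.7% and 79.9% of all repeat copies listed once. Of 380 internal copies listed only at the 4-cell stage, none was above 0 in at least 50% of the blastomeres, and the most widely seen, the 7649-base IAPEY4_I-int copy 5 of chromosome 12, was above 0 in 8 of 24. Of 913 internal copies listed only at the 8-cell stage, 65 were above 0 in at least 50%. The most widely seen was IAPEz-int copy 40 of chromosome 12, 6599 bases long, which was above 0 in 25 of 26 8-cell blastomeres with a median FPKM of 0.0371 and a highest of 5.38. Among all repeat copies listed at a single stage, the most widely seen were above 0 in 17 of 24 and in 25 of 26 blastomeres. The share of these that passed 50% is not given, so the counts of internal copies passing it are not compared with a background. A copy missing from a table had no value there, which at these depths and with unique reads does not show that it was silent.

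IAPEz-int, the internal part of a numerous and young IAP class, accounted for nearly all of this. It supplied 3849 of the 4214 internal copies, and 92.97% of the internal copies listed at the 4-cell stage and 93.6% at the 8-cell stage. It took 74.8% of the internal IAP fragments at the 4-cell stage and 91.0% at the 8-cell stage. Its median per blastomere was 371 FPM (range 89.1 to 1003) at the 4-cell and 995 (range 212 to 1691) at the 8-cell stage. Of 2809 IAPEz-int copies tested 1461 (52.01%) were higher by at least 25 points and 4 were lower. The highest copy numbers in the row names add up to at least 7278 annotated pieces over the chromosomes, so the listed copies were at most 52.9% of those in the genome.

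The recovered length of an IAPEz-int copy went with its detection. This length is the shortest that fits the values, so a rarely seen copy can be given less than its true length. Of the IAPEz-int copies, 417 were seen in 1 blastomere in all, and how far this shaped the short classes was not tested. The 801 copies of 6000 bases or more, close to the length of a complete internal part, were above 0 in a mean of 54.95% of 4-cell and 86.5% of 8-cell blastomeres. Copies under 500 bases reached 2.61% and 4.43%, and copies of 500 to 1000 bases 9.40% and 18.6%. Between 2000 and 4000 bases the means were 34.3% and 63.6%. Copies of 4000 to 6000 bases broke this order at the 4-cell stage, with means of 30.1% and 64.9%. By the median over copies, the level per kilobase was also higher in longer copies up to 4000 bases. The median of the mean FPKM at the 4-cell stage was 0.00506 under 500 bases, 0.00705 at 500 to 1000, 0.0113 at 1000 to 2000 and 0.0139 at 2000 to 4000. The 8-cell medians of these classes were 0.00664, 0.0117, 0.0310 and 0.0427. Beyond 4000 bases the order of the medians broke. They were 0.00739 and 0.0204 for the 88 copies of 4000 to 6000 bases, and 0.0140 and 0.0425 for those of 6000 or more. The mean over copies did not follow this order. For the classes up to 4000 bases it was 0.0211, 0.0714, 0.0519 and 0.0432 at the 4-cell stage. At the 8-cell stage it was 0.0480, 0.101, 0.124 and 0.110.

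The difference between stages was seen in every length class above 500 bases. The percent of tested copies called higher was 21.9 at 500 to 1000 bases, 44.5 at 1000 to 2000, 64.9 at 2000 to 4000, 66.7 at 4000 to 6000 and 66.1 at 6000 or more, while none of 54 tested copies under 500 bases was called. In an 8-cell blastomere a median of 740 of the 801 copies of 6000 bases or more were above 0, against 462 in a 4-cell blastomere. These long copies took a median of 39.3% of the IAPEz-int fragments at the 4-cell stage and 44.0% at the 8-cell stage.

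**Figure D4:**
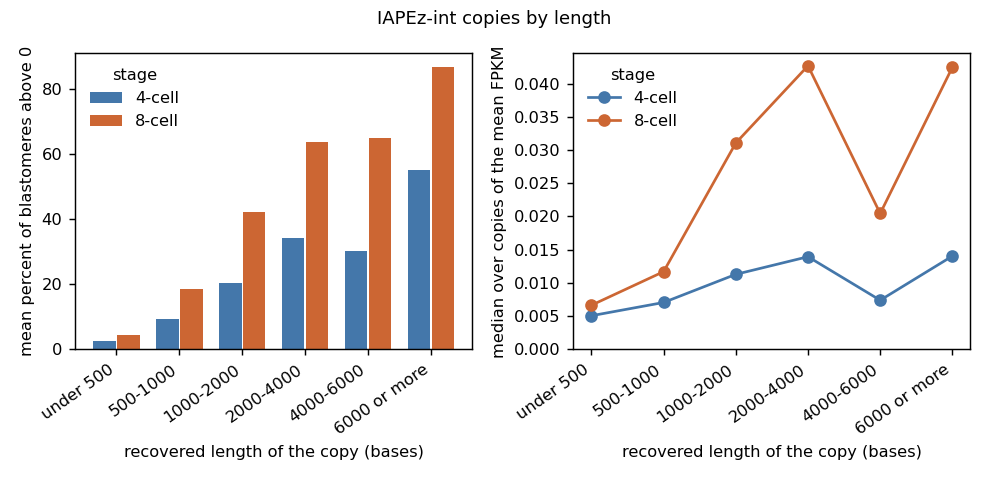
IAPEz-int copies are grouped by recovered length in bases. Bars (left) give the mean percent of blastomeres in which a copy was above 0, which runs from 2.61 to 54.95 at the 4-cell stage (blue) and from 4.43 to 86.5 at the 8-cell stage (orange). Points (right) give the median over copies of the mean FPKM, which reached 0.0140 and 0.0427.

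The difference was not tied to a few chromosomes. On all 21 chromosomes the mean percent of blastomeres in which an IAPEz-int copy was above 0 was greater at the 8-cell stage, with chromosome means between 20.2% and 34.5% at the 4-cell and between 43.7% and 54.9% at the 8-cell stage. The percent of tested copies called higher ran from 43.2 on chromosome 9 (57 of 132 copies) to 64 on chromosome Y (16 of 25 copies). Chromosome 2, with 114 of 202 copies called, and chromosome 1, with 108 of 212, contributed the largest numbers. The 4 IAPEz-int copies called lower lay on chromosome 11 (1), 13 (1) and 17 (2).

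The other 9 internal subfamilies were small, and their medians did not go 1 way. IAP1-MM_I-int had a median of 69.4 FPM at the 4-cell stage and 51.5 at the 8-cell stage, and none of its 15 tested copies was higher. IAPEY4_I-int, whose copies have a median length of 7597 bases, had 10.96 and 9.94 FPM. IAPEY3-int had 2.18 and 2.03. IAPEy-int stood at 1.19 FPM at the 4-cell stage and 0.0595 at the 8-cell stage, and IAP-d-int at 0.797 and 0.455. IAPLTR3-int, the internal part named after its LTR, was higher at the 8-cell stage, with medians of 0.594 and 1.46, a ratio of 2.46 beside 2.68 for IAPEz-int, and 3 of 12 tested copies called higher. IAPA_MM-int had medians of 0.271 and 0.357, with 1 of 18 copies called higher and 1 lower. These levels rest on few copies, with medians of at most 6 copies above 0 in a blastomere, and each range between blastomeres was far wider than the difference between the stages: IAPEY4_I-int ran up to 95.0 FPM at the 4-cell stage and up to 118 at the 8-cell stage, with blastomeres at 0 in both.

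Among LTRs, IAPLTR1_Mm, 1 of the LTRs that flank IAPEz-int, had the most copies called higher: 12 of 134 tested (8.96%), with 2 lower. It had a median of 16 copies above 0 in a 4-cell blastomere and 30 in an 8-cell blastomere, and 8.46 and 14.3 FPM. No other LTR subfamily had more than 2 copies called higher. IAPLTR2_Mm was the LTR subfamily with the most listed copies (298 in either table), and its medians were alike, 39.7 and 42.1 FPM. IAPLTR2a2_Mm had medians of 15.9 and 28.4, and IAPLTR2a of 10.6 and 7.33. IAPLTR1a_Mm took 26.01 and 22.95 FPM.

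The strongest internal copies were 2 neighbouring numbers of IAP1-MM_I-int on chromosome 13. Copy 14, 271 bases long, had an FPKM of 78.1 to 727 at the 4-cell stage (median 195) and of 0 to 393 at the 8-cell stage (median 141). Copy 15, of 119 bases, had 18.8 to 478 (median 88.6) and 0 to 170 (median 73.3). Both were above 0 in all 24 4-cell blastomeres, and both were at 0 in the same 2 of 26 8-cell blastomeres. Their levels went together, with a Pearson correlation of 0.974 at the 4-cell stage over 24 blastomeres and 0.933 at the 8-cell stage over 26, and copy 14 had 2.09 and 2.15 times the FPKM of copy 15 in the median blastomere. The files give no coordinates, so whether both lie in one transcript, and whether that is a gene's, was not analysed here. By median FPKM copy 14 ranked 701 among the 4-cell and 990 among the 8-cell repeat copies, and it drew a median of 710 and 699 fragments per blastomere.

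The next strongest internal copies belonged to IAPEz-int and were far weaker. IAPEz-int copy 184 of chromosome 8 (649 bases) had 0 to 29.2 at the 4-cell stage (median FPKM 4.05) and 0 to 44.4 at the 8-cell stage (median 6.03), and it was above 0 in 20 and 18 blastomeres. Copy 135 of chromosome 11 (3270 bases) had 0 to 6.54 (median 2.51) and 0.0329 to 17.9 (median 5.53). Copy 351 of chromosome 7, a long copy of 6373 bases, had 0.0128 to 1.86 (median 0.595) and 0 to 9.35 (median 3.97). The stages overlapped for each of them, and copy 351 had a mean 5.55-fold higher at the 8-cell stage. Copy 75 of chromosome 16 had medians of 1.14 and 2.55. The 5 strongest internal copies held a median of 18.2% of the internal fragments at the 4-cell stage and 8.73% at the 8-cell stage. The 2 IAP1-MM_I-int pieces alone held a median of 15.2% and 3.45%, so the lower share of the 5 came with these 2 pieces.

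The strongest LTR copies at both stages, IAPLTR1a_Mm copy 73 and IAPLTR2_Mm copy 17, were seen in every blastomere, as was IAPLTR2a copy 13. IAPLTR1a_Mm copy 73 of chromosome 2 (318 bases) had an FPKM of 34.4 to 119 at the 4-cell stage (median 68.5) and of 30.4 to 98.0 at the 8-cell stage (median 57.7). IAPLTR2_Mm copy 17 of chromosome 17 (429 bases) had 25.3 to 107 (median 65.4) and 39.1 to 131 (median 68.1). IAPLTR2a copy 13 of chromosome 17 (397 bases) had 0.781 to 26.0 (median 17.2) and 1.01 to 36 (median 9.53). These 3 were the only LTR copies above 0 in all blastomeres of both stages, and the stages overlapped in each. The first of them and IAPLTR2_Mm copy 17 alone held a median of 36.8% of the LTR fragments at the 4-cell stage and 34.2% at the 8-cell stage.

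Other LTR copies among the strongest by median were at 0 in some blastomeres. IAPEY_LTR copy 7 ranked next by median after the first 2 at the 4-cell stage, and IAPLTR2a2_Mm copy 60 did so at the 8-cell stage. IAPLTR2a2_Mm copy 60 of chromosome 9 (548 bases) was above 0 in 17 of 24 4-cell and 23 of 26 8-cell blastomeres, with an FPKM of 0 to 127 (median 8.04) and of 0 to 100.4 (median 45.6). IAPEY_LTR copy 7 of chromosome 16 was above 0 in 18 and 14 blastomeres and went the other way, with medians of 18.5 and 0.368 and highest values of 72.6 and 83.3. IAPLTR1_Mm copy 42 of chromosome 12 was weaker, with 0 to 17.6 (median 1.08) and 0.535 to 30.7 (median 6.47).

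**Figure D5:**
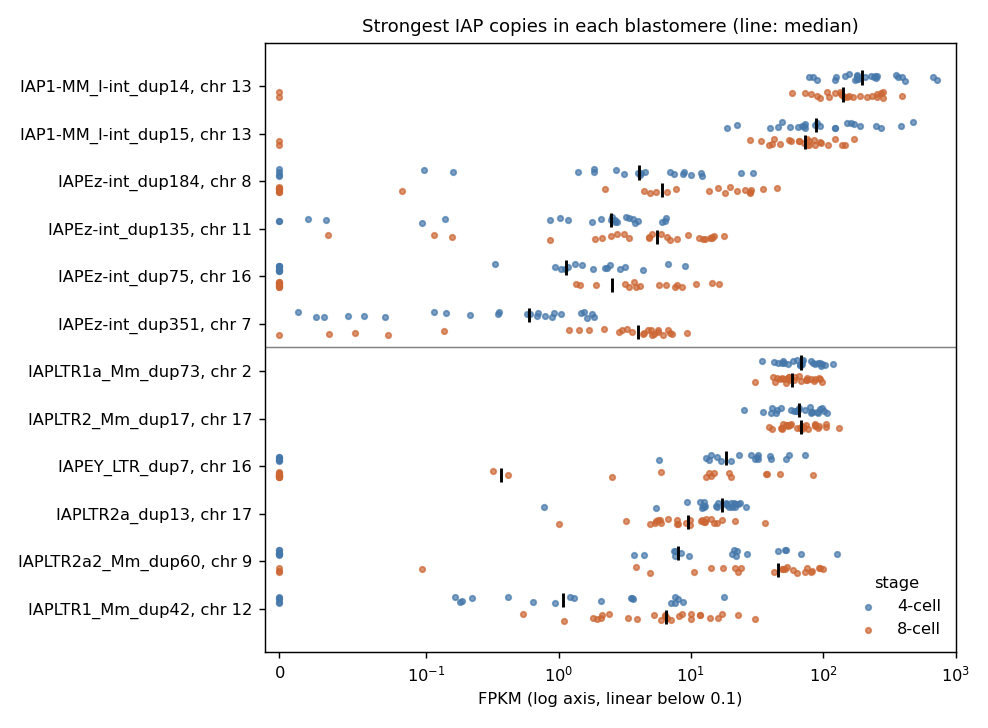
Each point is the FPKM of a copy in 1 blastomere, on a log axis that is linear below 0.1, with 4-cell blastomeres in blue, 8-cell blastomeres in orange and the median as a line. The 6 internal copies above the divider and the 6 LTR copies below it were the strongest by median at either stage. IAP1-MM_I-int copies 14 and 15 stand apart from the other internal copies, with 4-cell medians of 195 and 88.6, and the stages overlap for every copy shown.

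The internal copies with the largest rise in detection were all IAPEz-int. Copy 268 of chromosome 3 (1118 bases) was above 0 in 3 of 24 4-cell and 21 of 26 8-cell blastomeres, although 91.5% of its summed 4-cell FPKM lay in a single blastomere. Copy 179 of chromosome 16 went from 4 to 22 blastomeres, copy 83 of chromosome 4 (6425 bases) from 7 to 25, copy 318 of chromosome 6 from 1 to 18, and copy 196 of chromosome 12 from 2 to 19. Apart from copy 268, whose highest 8-cell value was 7.145, these copies stayed at or below an FPKM of 0.228 in every blastomere of either stage.

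Detection was lower at the 8-cell stage for 315 of the 2921 internal copies, beside 98424 of all 145104 repeat copies tested. For 8 of the internal copies it was lower by at least 25 points (0.274%, against 7.95% of all repeat copies). The 5 largest falls were of copies whose median FPKM was below 1 at either stage. IAPEz-int copy 369 of chromosome 13 (1982 bases) was above 0 in 23 of 24 4-cell and 12 of 26 8-cell blastomeres, with an FPKM of 0 to 10.5 (median 0.545) and of 0 to 2.02 (median 0). IAPEz-int copy 88 of chromosome 11 was above 0 in 24 and 16 blastomeres, with medians of 0.584 and 0.210. IAPEY4_I-int copy 2 of chromosome 12, at 7648 bases nearly the longest of its subfamily, went from 17 to 9 blastomeres, and 45.8% of its summed 4-cell FPKM came from the blastomere with 10.9. IAPEy-int copy 21 of chromosome 13 went from 10 to 2 blastomeres and IAP1-MM_I-int copy 20 of chromosome 3 from 8 to 1.

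For LTRs, 4 of the 5 largest rises were IAPLTR1_Mm copies. IAPLTR1_Mm copy 18 of chromosome X was above 0 in 2 of 24 4-cell and 17 of 26 8-cell blastomeres, copy 30 of chromosome 15 in 3 and 16, and copy 24 of chromosome 8 in 5 and 17. Their highest values were 1.80, 2.74 and 0.861. Among the falls, IAPLTR2a2_Mm copy 10 of chromosome 17 was above 0 in 11 and 1 blastomeres, with a highest FPKM of 40.8 and 6.57. IAPLTR2a copy 15 of chromosome 9 was above 0 in 12 and 3 blastomeres, with highest values of 88.7 and 26.9.

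In all, 6 internal copies were above 0 in every blastomere of both stages, all of them IAPEz-int. IAPEz-int copy 161 of chromosome 6 (6458 bases) was the strongest of these. Its FPKM was 0.156 to 1.43 at the 4-cell stage (median 0.618) and 0.335 to 4.01 at the 8-cell stage (median 2.05). No blastomere had fewer than 10 fragments on this copy. The ranges overlapped, and the means differed 2.77-fold. Copy 215 of chromosome 10 had medians of 0.0537 and 0.190, and copy 472 of chromosome 2 of 0.0978 and 0.351. Copy 171 of chromosome 11 had 0.294 and 0.479. The 2 copies of chromosome X, 162 and 444, had 0.0300 and 0.111, and 0.0806 and 0.212. Of the 6 copies, 5 were 6373 bases or longer, and copy 171 had 3277 bases.

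Blastomeres differed among themselves in ways that went with other repeats. At the 4-cell stage the FPM on internal IAP copies had a Pearson correlation of 0.890 with those on MERVL-int and MT2_Mm over 24 blastomeres (Spearman 0.754), and of 0.690 without the 2 blastomeres farthest from the median. At the 8-cell stage the value over 26 blastomeres was 0.346. With all other repeats together it was 0.748 at the 4-cell stage, falling to 0.286 without the 2 farthest blastomeres, and 0.750 at the 8-cell stage (0.708 without 2). The correlation with RLTR, ETn and RMER copies alone was 0.538 at the 4-cell stage and 0.778 at the 8-cell stage. All points share 1 denominator per library, blastomeres of an embryo were not told apart, and with depth itself the correlation was -0.08 and 0.273.

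Most genes that silence IAP elements were detected at both stages. The list holds 30 genes, of DNA methylation, H3K9 methylation, heterochromatin and the KRAB zinc finger pathway, and 29 had a median FPKM above 1 at each stage, beside 43.1% of the 13604 genes listed in both gene tables. Only 8 of the 30 were above 1 in every blastomere of the 4-cell stage and 8 in every blastomere of the 8-cell stage. Uhrf1 was above 1 in 13 of 24 and 15 of 26 blastomeres, and Suv39h2, an H3K9 methyltransferase with medians below 1, in 7 and 11. Among these 29 genes 3 had a median at least 2-fold higher at the 8-cell stage (10.3%), beside 8.71% of 5866 genes measured the same way, and 2 were at least 2-fold lower (6.90%), beside 10.9%. The median ratio over the list was 0.951, and over all genes 0.974.

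Trim28, the corepressor itself, had an FPKM of 8.12 to 164 at the 4-cell stage (median 59.8) and of 25.6 to 280 at the 8-cell stage (median 121). Daxx, a histone H3.3 chaperone, had medians of 1.84 and 10.4 with blastomeres at 0 at both stages, and Atf7ip, a partner of SETDB1, 3.82 and 8.87. Setdb1 had medians of 6.14 and 8.32. The lower genes were Dnmt1, the maintenance DNA methyltransferase, with medians of 7.72 and 2.26, and Zfp57, a KRAB zinc finger protein of imprinted regions, with 12.2 and 5.93. Zfp809, a KRAB zinc finger protein that binds retroviral primer binding sites, had 11.4 and 10.4. Uhrf1, the cofactor of DNMT1, had 1.48 and 2.36, and Dppa3, which protects methylation in the maternal genome, 3658 and 3260. The ranges of every one of these genes overlapped between the stages, and no relation between these genes and the IAP copies was tested.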

How the data were processed

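Single blastomeres were profiled by Smart-seq2 with Nextera XT libraries and 100-nt paired-end sequencing. The authors aligned reads with STAR 2.5.1b to mm10, kept uniquely aligned reads, and assigned them with HTSeq to genes of RefSeq and to RepeatMasker copies. The deposited values are FPKM per blastomere, with separate tables by stage and for genes and repeats. The repeat tables name no unit. Their values were whole multiples of 1 step per copy with the denominator of the gene table, which makes them FPKM. The files give each copy's subfamily, number and chromosome, and no coordinates or sequences.

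The labels describe 78 samples (36 4-cell, 5 5-cell, 6 6-cell, 31 8-cell), but 0 of the 50 columns could be matched to 1 sample, and 5 8-cell columns carried the name NA. The labels name several embryos per stage, but the column names do not give them, so each stage was treated as 1 sample. The FPKM denominators, recovered from the values, were 2.34 to 21.8 M (1000000 fragments) and are not the reads sequenced. Reads carry no molecular identifiers, so recovered fragments are not independent molecules.

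Fragments and copy lengths were recovered by finding the length in whole bases at which all values of a copy gave whole fragments (tolerance 0.003). All 5826 IAP copies gave a length. Lengths solved in each stage alone were the same for 96.1% of 3400 IAP copies. For rarely seen copies the fragments and the lengths are lower bounds. Tested on simulated data for the 24 4-cell and 26 8-cell blastomeres (25826 copies), the length was exact for 99.9% of 23290 copies. The 2-fold rule found all 100 simulated copies raised and all 99 lowered 4-fold, and called 0.403% of 7448 unchanged ones. Whether simulated copies spread between blastomeres and embryos as widely as the real ones was not tested. The 0.403% is therefore not taken as the rate of false calls among the real copies.

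A copy was internal when its name ended in -int, _I or _I-int. Rows without a copy number, the first copy on a chromosome, were kept. Named were the 5 copies with the highest median at each stage, the 5 largest rises and falls in detection, and copies above 0 in all blastomeres, internal parts and LTRs apart. The members and lists were chosen with earlier results of these data known. Alternatives left out blastomeres or the NA columns, or changed the minimum value, the depth, the sizes required and the unit. Python 3.11.15, numpy 2.4.6, pandas 2.3.3, scipy 1.17.1 and matplotlib 3.10.9 were used.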

Additional observations from a re-analysis of the deposited data

How the results depend on the processing

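No paired analysis was possible because no column name gives an embryo or a lineage, and columns were not assigned by order or depth. Of 138 values under alternatives, over 20 results, 88 stayed close to the reported value, 47 moved and 3 changed direction, and the cause was not tested. Close meant within 1.5 times for a count, and for a ratio within 1 SD between 8-cell blastomeres, divided by the 4-cell median. This SD does not measure the uncertainty of a ratio of medians. Ratios counted as close include LTR copies at equal depth (1.05, from 1.29) and internal summed FPKM with blastomeres pooled (1.03, from 1.22). Equal depth, 2 or more fragments, recovered fragments, the loss of 2 IAP1-MM_I-int pieces and the loss of the highest blastomere were chosen after seeing the data. The ratio of internal copies above 0 was 2.94 with 2 or more fragments, and that of their share 2.97. The ratio of summed FPKM was 2.20 with fragments and 2.08 without the 2 pieces. For LTRs the ratio of copies turned to 0.969 for values above 1, and that of summed FPKM to 1.01 without the NA columns and 1.10 with fragments.

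Internal copies in at least 50% of 4-cell blastomeres were 1835 when 25% sufficed, 6 above a value of 1, 219 with 2 fragments and 346 at equal depth, and 18 at the 8-cell stage above 1. For LTRs these were 68 and 11 at the 4-cell stage, and 76, 7, 15 and 14 at the 8-cell stage.

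Internal copies higher by 25 points were 29 above a value of 1 and 171 at 50 points, without a share over all repeat copies for comparison. Internal copies lower were 3 and 0, and 4 with 2 fragments and 4 at equal depth, and without 1 blastomere at a time 5 to 9. With 2 fragments and at equal depth the share was 0.137%, against 6.29% and 6.80% of all repeat copies. LTR copies higher were 4 and 1. LTR copies lower were 5 and 0, 16 with unlisted copies at 0 and 5 with 2 fragments. With 2 fragments the share was 1.04%, against 6.29% of all repeat copies, and the other LTR counts have no such share for comparison.

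Internal copies at least 2-fold higher were 3 on the log2 scale, 220 at 4-fold and 1288 when detection in 25% of blastomeres sufficed. Internal copies lower were 1, 3 and 56, 13 without the blastomeres with the fewest repeat copies and 7 without the highest blastomeres. The shares lower on the log2 scale, at 4-fold and at 25% were 0.108%, 0.325% and 3.10%, against 16.3%, 11.6% and 32.8% of all repeat copies. LTR copies higher were 2, 0 and 9, 3 against the median ratio of all repeats, 2 without the highest blastomeres and 1 to 2 without 1 blastomere at a time. LTR copies lower were 1, 0 and 4, 0 against the median ratio, and 1 to 3 without 1 blastomere at a time. The first 3 counts were 6.67%, 0% and 9.76% of the LTR copies tested, against 16.3%, 11.6% and 32.8% of all repeat copies. Detection at this depth limits copies with a few fragments, and uniquely mapped reads limit young copies.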
